A study of Americamysis bahia with 35 samples.

Results

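Juvenile mysids of the species Americamysis bahia were exposed to unweathered tire-wear particle leachate at 1.08 or 0.27 g/L, and whole-body transcript abundance was compared between these concentrations. The comparison rests on the 5 libraries labelled unweathered 1.08 g/L and the 5 labelled unweathered 0.27 g/L, chosen by their labels, which are 10 of the 35 libraries in the series. The control is on neither side of it, though the filter, the scaling and the estimate of spread used all 35 libraries, so it asks what differed over a 4-fold range of exposure, not what differed from clean seawater. All 34903 transcripts in the files were considered, and they were also summed to 22900 Trinity genes, the clusters of related transcripts that the Trinity assembler writes into its IDs. Isoforms were counted, and Trinity genes summed, over these transcripts alone. Isoforms of the assembly that are missing from them are not covered.

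Tire-wear particles are abraded from tire tread, and water in contact with them takes up rubber additives, their transformation products and metals such as zinc. Mysids are small shrimp-like crustaceans of estuaries and coasts that are widely used in toxicity testing because juveniles are sensitive to dissolved chemicals. Crustaceans exposed to foreign chemicals are known to change transcripts of detoxification enzymes, transporters, stress proteins and cuticle proteins. Which of these the present transcripts belong to cannot be said, because the files used here pair no ID with a gene name and no reference was given. For the same reason no gene list was run, the labelled tissue could not be checked against markers, no sequence is shown, and only 4 transcripts are named.

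Every group in the series was made of mysids labelled 5 days old, kept in or exposed through seawater of 25 ppt at 25 °C with 16 h of light and 8 h of darkness, and fed brine shrimp larvae every 12 h. The exposed groups received unweathered leachate at 0.27, 0.54 or 1.08 g/L, or weathered leachate at 0.67, 1.34 or 2.68 g/L, for 96 h, and the control was 25 ppt seawater at 0 g/L. Each of the 7 groups had 5 libraries. Whether the 5 were separate animals, pools or tanks is not stated, so p-values reflect only the spread among these samples, and that spread may be technical. No label says how weathering was done. In whole bodies, a change in the number of cells of a type and a change in RNA per cell cannot be told apart.

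Total estimated counts ran from 21275297 to 26206780 at 1.08 g/L and from 20342087 to 28390588 at 0.27 g/L, and mean depth did not differ beyond the spread between libraries (exact permutation test, two-sided, p = 0.802). Across transcripts, correlations of log2 CPM, a count scaled to library size, were 0.892 to 0.923 within the 1.08 g/L libraries, 0.882 to 0.909 within the 0.27 g/L libraries and 0.866 to 0.923 between them. The first 3 principal components of the 10 libraries, with 22.7%, 13.5% and 11.3% of the variance, were not shown to separate the concentrations (exact permutation tests over all splits, two-sided, Benjamini-Hochberg adjusted p = 0.310, 0.619 and 0.746). The share of TPM, a length-scaled abundance, held by the 10 most abundant transcripts was 15.5% (SD 0.881, n = 5) at 1.08 g/L and 17.4% (SD 1.87, n = 5) at 0.27 g/L, which did not differ beyond the spread between libraries (exact permutation test, two-sided, p = 0.0952).

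While no difference was shown in these measures, a small set of mostly abundant transcripts was called between the concentrations, and most of them were higher at 1.08 g/L. Of 27420 transcripts tested, 51 (0.186%) passed edgeR's quasi-likelihood test at a Benjamini-Hochberg adjusted p under 0.05. Of these, 42 (0.153%) were higher at 1.08 g/L, with a median change of 2.38-fold, and 9 (0.0328%) were lower, with a median change of 2.29-fold. At an unadjusted p under 0.05 the count was 1859 (6.78%). Over all tested transcripts the median log2 change was -0.0085. With upper quartile scaling 37 of 52 calls were higher, with DESeq2 140 of 217, and with edgeR 73 of 104 over the 13326 transcripts in the authors' deposited tables, against 42 of 51 here. The share of rises was larger with total count scaling, at 59 of 65, and with the 10 libraries alone, at 25 of 28.

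The rises covered a wide range of sizes. Among the 42, 4 were under 1.5-fold, 11 between 1.5-fold and 2-fold, 18 between 2-fold and 4-fold, and 9 at 4-fold or more, up to 36.4-fold. Of the 9 falls, 1 was under 1.5-fold, 3 were between 1.5-fold and 2-fold, and 4 were between 2-fold and 4-fold. The last was an isoform all but lost at 1.08 g/L, described further on. In 36 of the 42 rises every library at 1.08 g/L lay above every library at 0.27 g/L, as in 313 (1.14%) of all tested transcripts. In 8 of the 9 falls every library lay below, as in 194 (0.708%) of all tested, which makes 507 (1.85%) in either direction. The call itself used these values, so the separation is a description of the members.

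**Figure D1:**
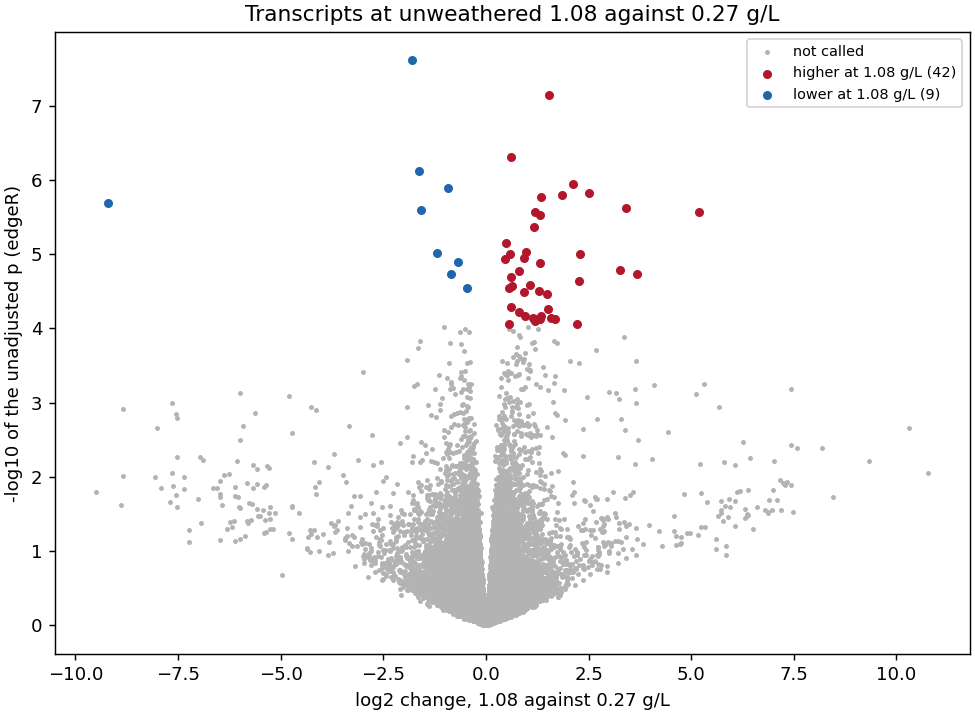
Each point is 1 of 27420 tested transcripts, with the log2 change between unweathered 1.08 and 0.27 g/L on the x axis and the -log10 of the unadjusted edgeR p on the y axis. The 42 called rises (red) outnumber the 9 called falls (blue), and many larger fitted changes far from 0 (grey) did not pass.

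Called transcripts lay mostly in the upper part of the abundance range, and whether depth limits calls among the less abundant was not tested. The 6855 most abundant tested transcripts held 32 of the 51, and the 6855 least abundant held 1. The median abundance over the 10 libraries was 22.7 CPM for the rises and 22.1 CPM for the falls, against 3.20 CPM for all tested. Lengths were unremarkable, with a median of 1783 bases for the rises and 1834 for the falls against 1911 for all tested. In 31 of the 51 (60.8%) the transcript was the sole isoform of its Trinity gene among the transcripts considered, against 40.7% of all tested.

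How many transcripts passed depended on which libraries entered the fit. The fit took its estimate of spread from all 35 libraries; with the 10 compared libraries alone 28 transcripts were called, 15 of them among the 51, and with the 15 unweathered libraries 23. Leaving out 1 library at a time gave 31 calls without 1.08 g/L replicate 3, 24 without 1.08 g/L replicate 5, 17 without 0.27 g/L replicate 3 and 30 without 0.27 g/L replicate 5, and between 35 and 56 without each of the others. Of the 51, 16 were called in all 10 of these fits.

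Among transcripts with a mean log2 CPM of at least 1, separate groups and a Trinity gene called the same way, the largest rise was that of TRINITY_DN2935_c0_g1_i11, of 2430 bases. Its abundance at 0.27 g/L was 7.47, 3.07, 2.15, 3.19 and 0.929 CPM in replicates 1 to 5. At 1.08 g/L it was 38.3, 72.7, 174, 144 and 185 CPM. The lowest library at 1.08 g/L thus lay well above the highest at 0.27 g/L, although values within each group spanned a wide range. It rose by 5.19 in log2 units (SE 0.903, edgeR adjusted p = 0.00535). The call was lost with the 15 unweathered libraries alone (edgeR adjusted p = 0.0802), and over 23 alternatives the adjusted p of TRINITY_DN2935_c0_g1_i11 ran from 8.18e-09 to 0.326. In the ranking by mean TPM the transcript moved from position 15654 at 0.27 g/L to position 1301 at 1.08 g/L.

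The Trinity gene of TRINITY_DN2935_c0_g1_i11 has 3 isoforms among the transcripts considered, and summed over them the rise was 4.38 (SE 0.808, edgeR adjusted p = 0.00643). The fitted log2 changes of the other isoforms were 3.18 and 3.28, and neither passed the test (edgeR adjusted p = 0.134 and 0.206). The named isoform held the largest part of the gene at 1.08 g/L, with a mean of 82.9 TPM against 24.9 and 3.16 TPM. At 0.54 g/L the libraries of the named isoform disagreed, with 83.4 CPM in replicate 1, 22.04 in replicate 4, 14.8 in replicate 5, 3.38 in replicate 2 and 1.501 in replicate 3. That group overlapped both neighbours in concentration. In the control the range was 0.360 to 3.78 CPM, and under weathered leachate the mean was 4.27 ± 3.01 CPM (SD, n = 5) at 0.67 g/L against 58.8 ± 44.4 CPM (SD, n = 5) at 2.68 g/L. The weathered difference, 3.79 on the log2 scale (SE 0.848), did not pass (edgeR adjusted p = 0.126).

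The second named rise was TRINITY_DN8886_c0_g1_i4, of 2176 bases and the sole isoform of its Trinity gene among the transcripts considered. Its libraries at 0.27 g/L lay close together, at 1.08, 1.24, 1.29, 1.07 and 1.64 CPM in replicates 1 to 5. At 1.08 g/L replicates 1 to 3 had 4.65, 4.75 and 4.27 CPM, while replicates 4 and 5 had 31.2 and 22.7 CPM. All 5 exceeded every library at 0.27 g/L, and they fell into a lower trio and a higher pair. This was a difference of 3.42 in log2 units (SE 0.590, edgeR adjusted p = 0.00535). At 0.54 g/L the range was 0.862 to 2.45 CPM, which overlapped 0.27 g/L and lay below every library at 1.08 g/L, and the step from 0.54 to 1.08 g/L passed as well (log2 change 3.21, SE 0.584, edgeR adjusted p = 0.0297). The call at 1.08 against 0.27 g/L was lost with the 10 libraries alone (edgeR adjusted p = 0.102) and with limma-voom (adjusted p = 0.0581); over 22 alternatives the adjusted p of TRINITY_DN8886_c0_g1_i4 ran from 1.24e-06 to 0.455.

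Of the falls, TRINITY_DN22786_c0_g1_i1, of 2509 bases and the sole isoform of its Trinity gene among the transcripts considered, changed most by the same rule. It had 3.57, 10.3, 7.83, 10.2 and 9.34 CPM in replicates 1 to 5 at 0.27 g/L. At 1.08 g/L it had 1.78, 2.99, 2.00, 2.70 and 2.30 CPM. Replicate 1 at 0.27 g/L was low for its group and still above the highest library at 1.08 g/L. On the log2 scale it fell by 1.81 (SE 0.243, edgeR adjusted p = 0.000677), the smallest p among all tested transcripts. At 0.54 g/L the values, 6.10 to 8.38 CPM, lay within the range at 0.27 g/L, and the upper step alone passed (log2 change -1.64, SE 0.242, edgeR adjusted p = 0.00429). With the 10 libraries alone the call was lost (edgeR adjusted p = 0.0583), and over 23 alternatives the adjusted p of TRINITY_DN22786_c0_g1_i1 ran from 2.08e-09 to 0.180.

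The fourth named transcript, TRINITY_DN9575_c0_g2_i1, was short, at 948 bases, and among the most abundant in the animals. It ranked 40 by mean TPM at 0.27 g/L and 170 at 1.08 g/L. Its libraries at 0.27 g/L had 2064, 1467, 1274, 1641 and 1606 CPM in replicates 1 to 5. Those at 1.08 g/L had 418, 456, 446, 932 and 330 CPM, with replicate 4 apart from the others and still below every library at 0.27 g/L. On the log2 scale it fell by 1.64 (SE 0.265, edgeR adjusted p = 0.00519). At 0.54 g/L the range of 686 to 1687 CPM overlapped both neighbours, and neither step passed on its own (edgeR adjusted p = 1 and 0.179). With the 10 libraries alone the call was lost (edgeR adjusted p = 0.0569), and over 23 alternatives the adjusted p of TRINITY_DN9575_c0_g2_i1 ran from 7.98e-07 to 0.208.

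**Figure D2:**
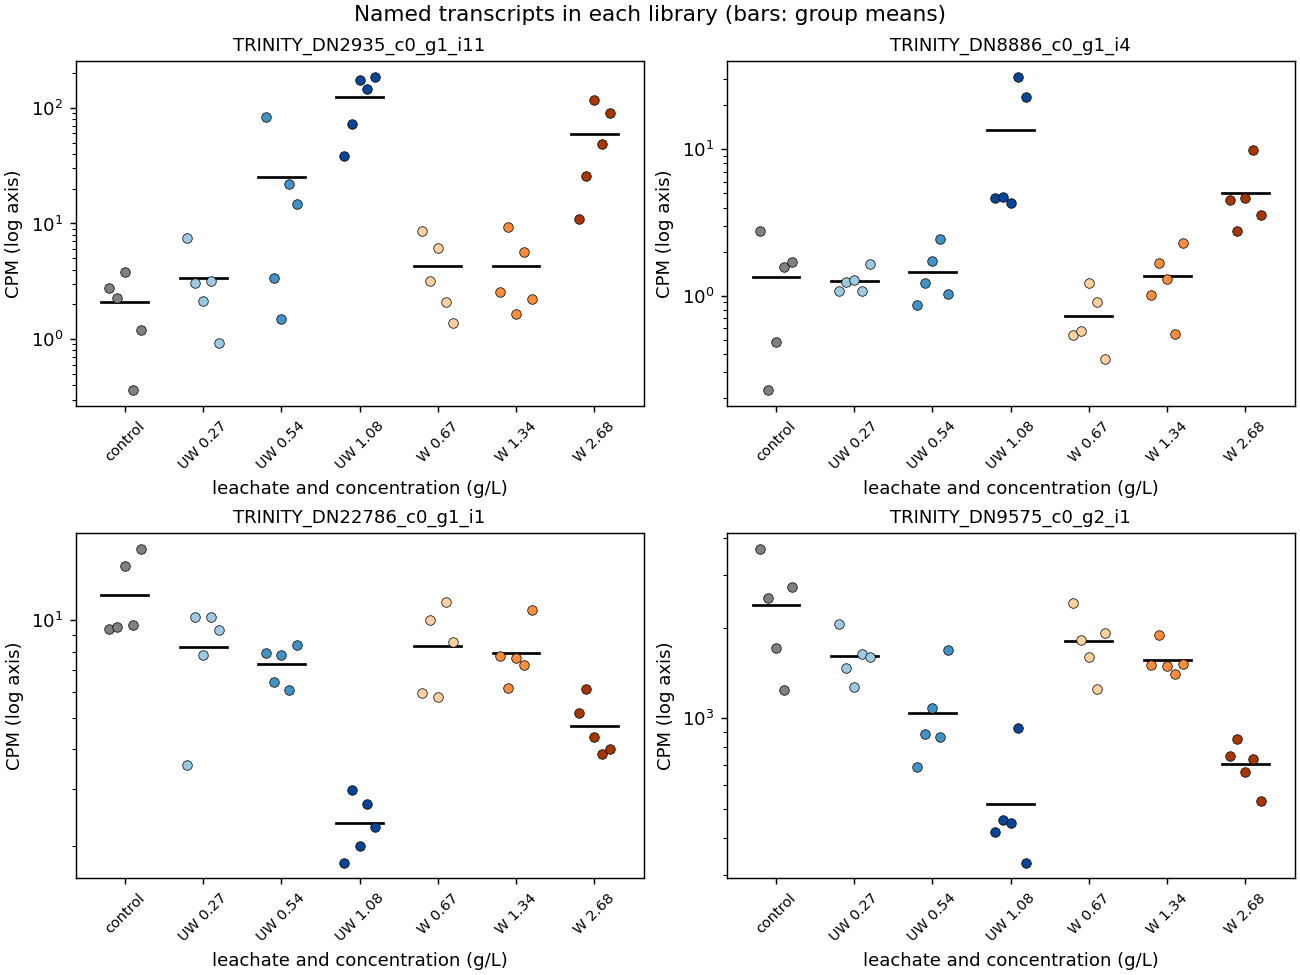
CPM on a log axis in each library of the 7 groups for the 4 named transcripts, with points for libraries and bars for group means (UW unweathered, W weathered, g/L). The rises (top) sit lowest in the control, UW 0.27 and the lower weathered groups. At UW 0.54 TRINITY_DN8886_c0_g1_i4 is low too, at 0.862 to 2.45 CPM, while TRINITY_DN2935_c0_g1_i11 spans 1.501 to 83.4 CPM. Both falls (bottom) reach their lowest mean at UW 1.08.

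Changes from the control share the 1.08 or the 0.27 g/L libraries with the comparison and are given beside it. Each named transcript was farther from the control at 1.08 than at 0.27 g/L. TRINITY_DN2935_c0_g1_i11 had a log2 change of 5.86 (SE 0.935) from the control at 1.08 g/L and 0.67 (SE 0.802) at 0.27 g/L. For TRINITY_DN8886_c0_g1_i4 these were 3.32 (SE 0.586) and -0.10 (SE 0.559). TRINITY_DN22786_c0_g1_i1 had -2.35 (SE 0.246) and -0.54 (SE 0.232), and TRINITY_DN9575_c0_g2_i1 had -2.20 (SE 0.270) and -0.56 (SE 0.259). The 4 values at 1.08 g/L passed the edgeR test, where 385 (1.4%) of all tested did, and the 4 at 0.27 g/L did not, where 2 (0.00729%) of all tested did. In the authors' deposited table for 1.08 g/L against the control, the log2 fold changes of TRINITY_DN2935_c0_g1_i11, TRINITY_DN22786_c0_g1_i1 and TRINITY_DN9575_c0_g2_i1 are 5.85, -2.37 and -2.23, and TRINITY_DN8886_c0_g1_i4 is not listed; 45 of the 51 called transcripts are in that table.

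A fall of another kind was chosen for description after its values were seen. An isoform of 1810 bases, in a Trinity gene of 6 isoforms, had estimated counts of 80.6, 80.3, 92.0, 59.2 and 39.5 in the 0.27 g/L libraries. In the 1.08 g/L libraries its highest estimated count was 0.335. Against a floor of 3 counts per library it was at least 24.8-fold lower at 1.08 g/L. The summed Trinity gene did not pass, at a fitted log2 difference of 0.22 (SE 0.0951, edgeR adjusted p = 0.519). The fall thus holds for the estimated counts of that isoform and was not shown for the gene. Whether the isoform was lost or its reads were assigned to other isoforms was not tested. Control libraries also ranged from 0 to 110.4 estimated counts for this isoform. It was the sole member of the 51 whose Trinity gene was not called in the same direction.

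Summing isoforms gave more calls. Of 17990 Trinity genes tested, 102 (0.567%) passed, with 78 (0.434%) higher at 1.08 g/L by a median of 1.93-fold and 24 (0.133%) lower by a median of 1.74-fold. Complete separation of the 5 and 5 libraries was seen in 84 of the 102, against 403 (2.24%) of all tested Trinity genes. Of the 102, 47 held a called transcript. The 51 called transcripts came from 48 Trinity genes. In 3 of these several transcripts were called, in 0 of them in opposite directions. The remaining 55 called Trinity genes comprised 39 rises and 16 falls and divided into 28 with several isoforms and 27 with 1. For those 27, the same counts missed the threshold as transcripts, at edgeR adjusted p between 0.0501 and 0.102. More features were tested there, and what made the difference was not tested. Calls among Trinity genes numbered 62 with the 10 libraries alone, 44, 61 and 56 without 1.08 g/L replicates 3, 4 and 5, and 40 and 33 without 0.27 g/L replicates 3 and 5. With upper quartile scaling 69 of 115 were higher, and with total count scaling 128 of 141.

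The intermediate concentration of 0.54 g/L is midway between 0.27 and 1.08 g/L on a log scale, each step being 2-fold. For most called transcripts the smaller part of the log2 change lay below 0.54 g/L. The median share of the whole log2 difference reached at 0.54 g/L was 0.260 for the 42 rises and 0.214 for the 9 falls. Among the rises, 3 had a share below 0, 16 a share between 0 and 0.25, 22 between 0.25 and 0.75, and 1 above 0.75. Among the falls, 6 lay between 0 and 0.25 and 3 between 0.25 and 0.75. The call placed the ends far apart and set no condition on the middle group, though the middle group shares each end with the whole difference.

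On the log2 scale the median lower step of the rises was 0.30 and the median upper step 0.87, and the upper step was the larger in 36 of 42. For the falls these medians were -0.26 and -0.94, and the upper step was the larger in 8 of 9. Tested on all transcripts, the upper step gave 6 calls (0.0219%), of which 5 were among the 51. It gave 155 with DESeq2, 39 with total count scaling, 21 with a filter of 1 CPM in 5 libraries, 11 with upper quartile scaling and 3 with limma-voom. The lower step gave 0 by edgeR, with 796 (2.9%) at an unadjusted p under 0.05, 0 by limma-voom and 18 by DESeq2. The upper step's calls numbered 16 without 1.08 g/L replicate 1, 13 without 0.54 g/L replicate 1, 3 without 1.08 g/L replicate 2, and 1 and 2 without 0.54 g/L replicates 2 and 5. A test of whether the steps differ, added after these values were seen, called 0 transcripts (smallest edgeR adjusted p = 0.458), with 1357 (4.95%) at an unadjusted p under 0.05, 13 of them among the 51; it was run with edgeR alone. A larger upper step is thus a description of the fitted means.

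**Figure D3:**
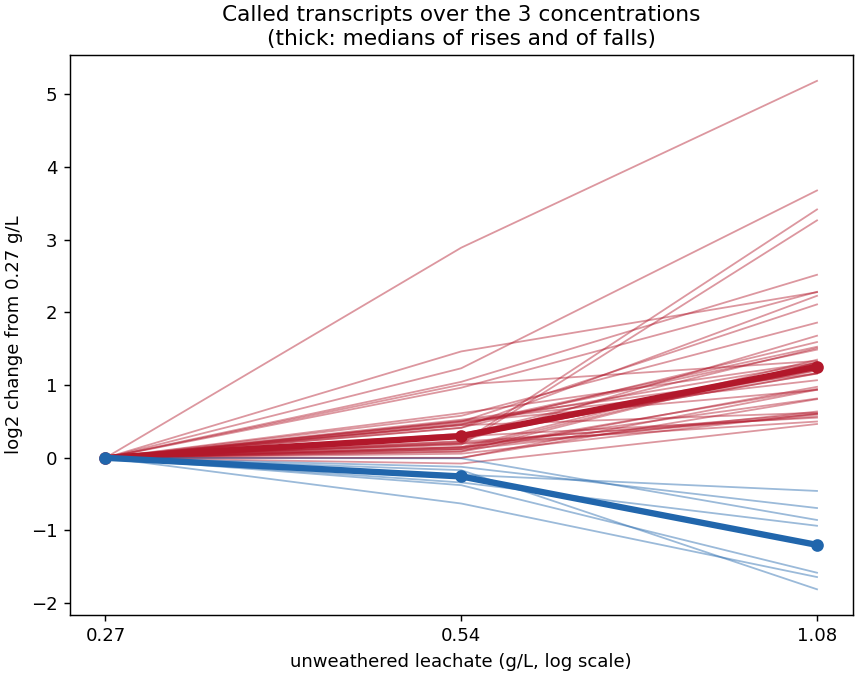
Fitted log2 change from 0.27 g/L (y axis) at the 3 unweathered concentrations (x axis, log scale) for 42 called rises (red) and 8 of the 9 called falls (blue); the fall to near 0 counts is off the scale and not drawn. Thick lines are medians over all 42 and all 9, at 0.30 and -0.26 for 0.54 g/L, and they steepen toward 1.08 g/L.

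The 0.54 g/L libraries were unequal among themselves. In replicate 1, 29 of the 42 rises exceeded all 5 libraries at 0.27 g/L, as did 19.4% of all tested transcripts. In replicates 2 to 5 these counts were 6, 13, 15 and 12, against 14.0% to 15.2% of all tested. The 0.27 g/L libraries chose the members, so these counts describe only how the 0.54 g/L libraries differ from each other. A score was taken as the mean over the 42 rises of log2 CPM minus the control mean. It was 0.95 in replicate 1 at 0.54 g/L and between 0.23 and 0.53 in the others, against -0.10 to 0.28 at 0.27 g/L and 1.32 to 1.73 at 1.08 g/L. Without 0.54 g/L replicate 1 the median share reached at 0.54 g/L was 0.170 for the rises and 0.123 for the falls, the lowest values when each of the 15 unweathered libraries was left out in turn. The highest were 0.394 for the 37 rises called without 0.27 g/L replicate 1, and 0.283 for the 9 falls, without 0.54 g/L replicate 5. Leaving out a 0.54 g/L library kept the 42 rises and 9 falls. Leaving out a 1.08 or 0.27 g/L library called the members anew, so these values do not all cover the same transcripts.

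The same transcripts were also compared between other groups. The 0.54 g/L group and the control are on neither side of 1.08 against 0.27 g/L, but their libraries entered the spread, filter and scaling used to call the 51. The p-values from the fit of 35 libraries share that spread, so a percentage over all tested is not the level that the members would show without a change. For the separate fit that level was not estimated either, since no share among transcripts of like abundance was taken. In 0.54 g/L against the control, 38 of the 42 rises were higher, as were 49.8% of all tested transcripts, and their median log2 change was 0.37 against -0.0012 for all tested. At an unadjusted p under 0.05, 20 of the 42 were higher, against 5.34% of all tested, and 4 passed at an adjusted p under 0.05, against 13 (0.0474%) of all tested. In 10 of the 42 every 0.54 g/L library lay above every control library, as in 265 (0.966%) of all tested. The median was 0.25 without 0.54 g/L replicate 1. Of the 9 falls 8 were lower at 0.54 g/L than in the control, as were 50.2% of all tested, with a median log2 change of -0.33. At an unadjusted p under 0.05, 6 of the 9 were lower, against 2.73% of all tested in that direction. At an adjusted p under 0.05, 0 of the 9 were lower, against 1 (0.00365%) of all tested. Over the 3 falls called with the 10 libraries alone the median was 0.27, the opposite direction. Complete separation below the control was seen in 2 of the 9, as in 157 (0.573%) of all tested. Of the 24 Trinity genes that fell, 14 were lower, as were 49.8% of all tested Trinity genes, with a median of -0.06, and 2 passed, against 2 (0.0111%) of all tested. Of the 78 that rose, 67 were higher, as were 50.2% of all tested, with a median of 0.38, and 8 passed, against 26 (0.145%) of all tested. With members called in the 10 libraries at 1.08 and 0.27 g/L alone, and the change fitted in the 10 at 0.54 g/L and in the control alone, a choice made after seeing the data, 21 of 24 rises were higher, as were 49.7% of all tested, and 7 had an unadjusted p under 0.05, against 4.64% of all tested. Of the 3 falls, 1 was lower, as were 50.3% of all tested. That separate fit called 0 of 24134 transcripts by edgeR (smallest adjusted p = 0.0676), with 1843 at an unadjusted p under 0.05; no other tool was run on it.

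Weathered leachate over the same 4-fold range, 2.68 against 0.67 g/L, compares another 10 libraries, which likewise entered the spread, filter and scaling behind the 51 calls. For p-values from the fit of 35 libraries, a percentage over all tested is again not the level that the members would show without a change. For the separate fit that level was not estimated either, since no share among transcripts of like abundance was taken. All 42 rises were higher at 2.68 g/L, as were 50.9% of all tested transcripts, with a median log2 change of 0.74 and a range from 0.09 to 3.79. At an unadjusted p under 0.05, 38 of the 42 were higher, against 3.13% of all tested. In 20 of the 42 the libraries separated completely in that direction, as in 145 (0.529%) of all tested. All 9 falls were lower, as were 49.1% of all tested, with a median of -0.56 and a range from -1.36 to -0.11. At an unadjusted p under 0.05, 5 of the 9 were lower, against 2.82% of all tested. Complete separation was seen in 2 of the 9, as in 91 (0.332%) of all tested. In that comparison 12 transcripts (0.0438%) were called, 7 of them among the 51 and in the same direction, which is 13.7% of the 51 and 58.3% of the 12. The count was 73 with DESeq2, 25 with total count scaling and 3 without the filter, so both shares rest on an unstable count. It was 9 without weathered 0.67 g/L replicate 5 and 3 to 6 without each of the other 9 libraries. Fitted in these 10 weathered libraries alone, it was 0 of 23938 by edgeR (smallest adjusted p = 0.0536), with 984 at an unadjusted p under 0.05; no other tool was run on that fit. There, of the members called in the 10 unweathered libraries alone, 23 of 25 rises were higher, as were 48.8% of all tested, and 20 had an unadjusted p under 0.05, against 2.08% of all tested. Among the falls 3 of 3 were lower, as were 51.2% of all tested, 1 of them at an unadjusted p under 0.05, against 2.03%. Among the named transcripts TRINITY_DN9575_c0_g2_i1 was among the 7, where it fell by 1.36 on the log2 scale (SE 0.263, edgeR adjusted p = 0.0433). No transcript was called lower there with the 10 weathered libraries alone, without the filter on low counts, or in 7 of the 10 fits that left out a library (weathered 2.68 g/L replicates 1 to 4 and weathered 0.67 g/L replicates 1 to 3), so that call was lost in each. Of the called Trinity genes, 76 of 78 rises were higher, as were 50.5% of all tested, and 23 of 24 falls lower, as were 49.5% of all tested, with medians of 0.53 and -0.32. Among the rises 11 passed, against 12 (0.0667%) of all tested, and among the falls 2, against 2 (0.0111%).

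**Figure D4:**
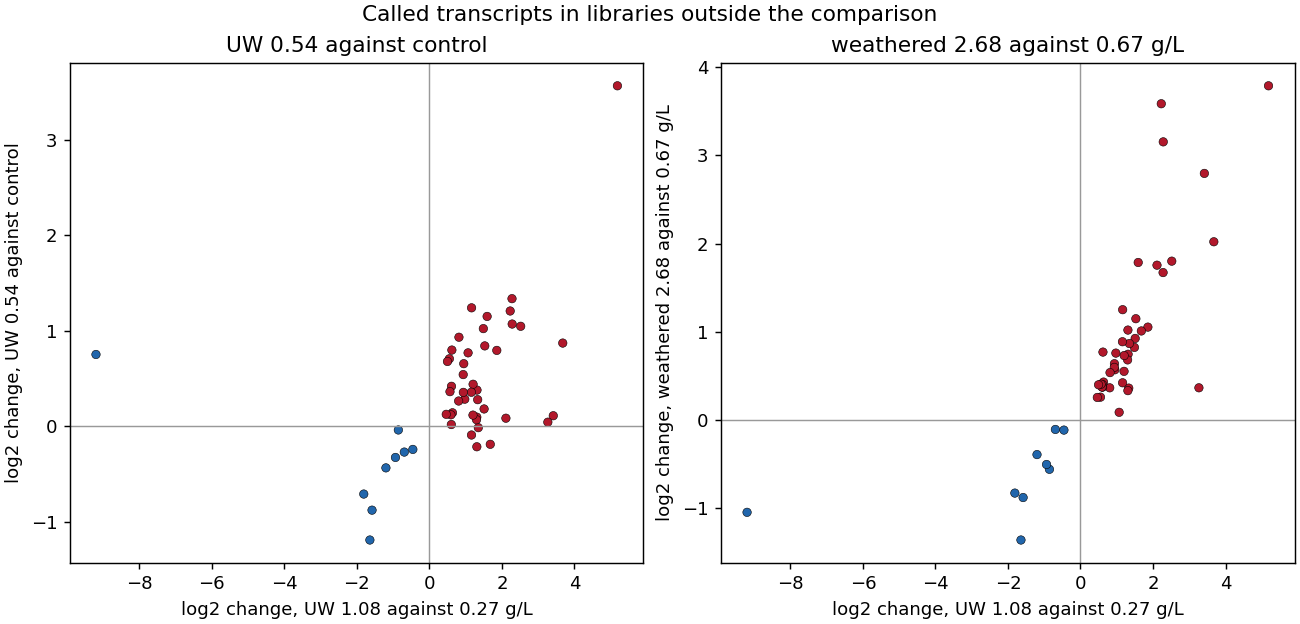
Fitted log2 change of the 51 called transcripts at unweathered 1.08 against 0.27 g/L (x axis) and in comparisons between other libraries (y axes), at left unweathered 0.54 g/L against control and at right weathered 2.68 against 0.67 g/L. Red points are rises and blue points falls; at right all 42 rises lie above 0 and all 9 falls below, and at left 38 and 8 do.

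Changes under unweathered leachate were the larger in 37 of the 42 rises and 9 of the 9 falls, but these members were selected for their unweathered change. The difference between the leachates was tested directly as an interaction over all transcripts, and 0 passed with edgeR (smallest adjusted p = 0.714), 0 with limma-voom and 11 with DESeq2. At an unadjusted p under 0.05 there were 858 (3.13%), 10 of them among the 51. The concentrations of the leachates also differ, so the equal ratio of 4 is the sole basis of this test.

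Across the whole series, the mean score of the 42 rises was near 0, the control level, at the low concentrations of both leachates. It was 0.11 ± 0.171 (SD, n = 5) at unweathered 0.27 g/L, 0.07 ± 0.112 (SD, n = 5) at weathered 0.67 g/L, with 0.13 ± 0.130 (SD, n = 5) at weathered 1.34 g/L. Single members went both ways: 25 of the 42 had a higher mean CPM at 0.27 g/L than in the control and 17 a lower one, with log2 ratios of these means from -0.73 to 0.79, and the 0.27 g/L libraries had a part in selecting the members. The score was 1.52 ± 0.187 (SD, n = 5) at unweathered 1.08 g/L but 1.05 ± 0.258 (SD, n = 5) at weathered 2.68 g/L. The score of the 9 falls was -0.0023 ± 0.0503 (SD, n = 5) at unweathered 0.27 g/L, -1.60 ± 0.124 (SD, n = 5) at 1.08 g/L but -0.68 ± 0.351 (SD, n = 5) at weathered 2.68 g/L. In the control the falls' score itself ranged from -0.58 to 0.45. Of the 9 falls, 7 had a lower mean CPM at 0.27 g/L than in the control and 2 a higher one, among them the isoform near 0 counts at 1.08 g/L. Without that isoform, a choice made after seeing the values, the score of the other 8 was -0.24 ± 0.0573 (SD, n = 5) at unweathered 0.27 g/L, -1.39 ± 0.139 (SD, n = 5) at 1.08 g/L but -0.78 ± 0.186 (SD, n = 5) at weathered 2.68 g/L, and in the control it ranged from -0.24 to 0.21.

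In terms of abundance, the rises together made up 1949 TPM (SD 409, n = 5) at 0.27 g/L and 4541 TPM (SD 322, n = 5) at 1.08 g/L. Their libraries ran from 1562 to 2619 TPM and from 4131 to 4830 TPM, without overlap. The falls together went from 3422 TPM (SD 653, n = 5) to 1216 TPM (SD 433, n = 5), and TRINITY_DN9575_c0_g2_i1 alone accounted for 2945 TPM of the former and 993 TPM of the latter. These sums describe members that the same libraries selected and carry no test.

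**Figure D5:**
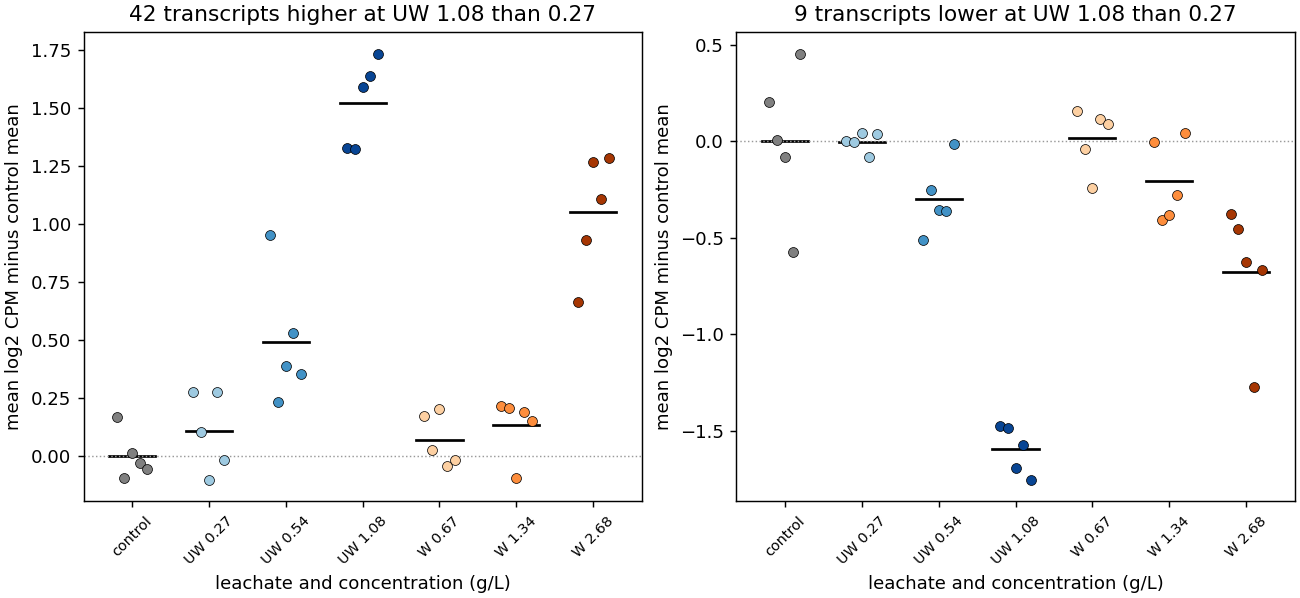
Mean over called transcripts of log2 CPM minus the control mean (y axis) in each of the 35 libraries by group (x axis, g/L), for the 42 rises (left) and the 9 falls (right); bars are group means. Rises at UW 0.54 run from 0.23 to 0.95, overlap those at UW 0.27 (-0.10 to 0.28) and lie below all at UW 1.08. W 2.68 runs from 0.67 to 1.28.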

How the data were processed

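The authors deposited, per the file headers, an estimated count (expected count) and a TPM value for each of 34903 transcripts in each library, with transcript lengths. Per the submitters' processing notes, the tools were Trimmomatic 0.38, kallisto and DESeq2. The sources used here give neither the assembly nor the kallisto version. The authors' deposited tables against the control hold log2 fold changes and adjusted p-values (FDR), per the file headers, for 13326 transcripts; the choice of these is not given. kallisto divides reads among similar isoforms, so counts of 1 isoform can move with another. Libraries were made from 250 ng of total RNA by poly(A) selection, per the labels' protocols.

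Estimated counts were rounded, and transcripts kept with filterByExpr (minimum count 10, total 15), which held 99.86% to 99.95% of each library. edgeR 4.0.16 in R 4.3.3 fitted 7 group means to 35 libraries with TMM scaling; quasi-likelihood contrasts were Benjamini-Hochberg adjusted over all features tested and called below 0.05. SE is the log2 change over the square root of F. Trinity genes are sums over IDs without the isoform suffix, and isoforms were counted among the 34903 transcripts alone. CPM uses TMM-scaled totals. log2 CPM for scores, correlations and components (500 most variable transcripts) had a prior count of 2. The fit was tested on simulated counts.

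Named transcripts are the 2 largest changes in each direction among calls whose log2 CPM averaged 1 or more across the 10 libraries, with no overlap between groups and a Trinity gene called in the same direction (35 rises and 7 falls passed). The members, lists, rules and tests were chosen with earlier results of these data known. Alternatives were other scalings, filters and library sets, DESeq2 1.42.0, limma-voom (limma 3.58.1), a robust prior, a replicate block, length-scaled gene counts and leaving out each library.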

Additional observations from a re-analysis of the deposited data

Results flagged for a closer look

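Of 51 groups of 5 libraries examined (the 4 named transcripts and the scores of the rises and falls in each of the 7 groups, and total count, scaling factor and TPM share of the 10 most abundant transcripts in the 3 unweathered groups), 5 held a library far from the others by Dixon's criterion, which chance meets in about 1 in 20 groups of normally distributed values. CPM was used without a log, and whether these values are normally distributed was not tested. TRINITY_DN2935_c0_g1_i11 had 83.4 CPM in replicate 1 at unweathered 0.54 g/L, where the next library had 22.04 CPM. TRINITY_DN8886_c0_g1_i4 had 9.84 CPM in replicate 4 at weathered 2.68 g/L, against 2.77 to 4.64 CPM in the others. TRINITY_DN9575_c0_g2_i1 had 932 CPM in replicate 4 at unweathered 1.08 g/L, against 330 to 456 CPM, and 1901 CPM in replicate 2 at weathered 1.34 g/L, against 1411 to 1513 CPM. The score of the 42 rises was -0.094 in replicate 3 at weathered 1.34 g/L, against 0.15 to 0.22 in the others.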

How the results depend on the processing

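The count of 51 transcripts lay between 52 and 67 with RLE, upper quartile or total count scaling, without a filter, with a filter of 1 CPM in 5 libraries, with limma-voom, with a robust prior and with the replicate block in 35 libraries. It was 217 with DESeq2, 104 over the 13326 transcripts of the authors' tables (fewer tests), 28 with the 10 libraries alone and 23 with the 15 unweathered ones; leaving out each library gave 17 to 56. DESeq2 called all 51, limma-voom 46. For Trinity genes the count was 209 with DESeq2, 62 and 43 with 10 and 15 libraries, and 33 to 93 leaving out each library. The upper step had 11, 39, 21, 155 and 3 calls with upper quartile scaling, total count scaling, the 1 CPM filter, DESeq2 and limma-voom, and 1 to 16 leaving out each library. The lower step had 18 and the interaction 11 with DESeq2 and 0 otherwise. Weathered 2.68 against 0.67 g/L had 25, 3, 73, 6 and 0 calls with total count scaling, no filter, DESeq2, the replicate block and its own 10 libraries, and 3 to 9 leaving out each library. Causes were not tested.

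The falls' median at 0.54 g/L against control was -0.72 over the 6 falls called with total count scaling and -0.057 over Trinity genes. It was 0.27, reversed, over the 3 falls called in the 10 libraries (0.26, also reversed, in separate fits of 10 libraries). Leaving out libraries it ran from -0.71 to -0.23. Leaving out a 1.08 or 0.27 g/L library also called the members anew. The -0.71 is over the 5 falls called in each fit without 1.08 g/L replicate 5 or 0.27 g/L replicate 3. For weathered leachate, members called in the 10 libraries gave 1.05 and -0.88 (1.04 and -0.90 in separate fits). Leaving out libraries gave 0.51 to 1.04 for rises and -0.88 to -0.42 for falls, with members again called anew without a 1.08 or 0.27 g/L library. The -0.88 there is over the 5 falls called in each fit without 1.08 g/L replicate 5 or 0.27 g/L replicate 3. The fits of each step in 15 libraries, the separate fits and the leave-one-out values of medians and components were chosen after seeing the data.

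Same-numbered libraries did not deviate together (correlations -0.073, 0.185, -0.144, -0.035 and 0.160; 2 of 5 matched their own number best), which gives no sign of pairing but does not settle it; the labels do not say what a number marks, and samples were not treated as paired. With the replicate block 53 transcripts and 96 Trinity genes were called in 35 libraries. In the 10 libraries the replicate block left 0 transcripts by edgeR (smallest adjusted p = 0.0767, 1591 at an unadjusted p under 0.05) and 12 Trinity genes. Of the 6855 least abundant transcripts 1 was called; whether depth limits calls among them was not tested. With the replicate block no transcript was called lower at weathered 2.68 than at 0.67 g/L.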
